A study of Homo sapiens with 4 samples.

Results

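The 550 region pairs described here were joined by at least 8 paired-end tags (PETs) in control IMR90 fibroblasts and by at most 1 PET in each of 3 senescent IMR90 libraries. They are called lost pairs below. A PET is a sequenced fragment whose ends lie in different anchors, the regions between which contacts were counted. The pairs were selected on the PETs of all 4 libraries, so their low senescent counts are a description and not a result. They were found among 15066 pairs of shared regions with 8 or more control PETs, of which 3.65% met the rule. Shared regions are merged stretches that hold an anchor of the control library and an anchor of the senescent libraries, 38038 of 79742 merged regions in all. The lost pairs use 930 of them.

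The libraries come from H3K27ac HiChIP, which joins DNA ends that are close in fixed nuclei and enriches them with an antibody against histone H3 acetylated at lysine 27. IMR90 is a line of fibroblasts from human embryonic lung. There is 1 library for each group: senescent shcontrol, senescent shMETTL3 and senescent shMETTL14 cells, and control cells of genotype WT. Senescence was induced with an inducible fusion of the estrogen receptor and an oncogenic RAS; the labels do not say whether control cells carry the fusion or a hairpin. One protocol label names METTL4 where the titles name METTL14, and the titles were followed. The libraries hold 552029, 623930 and 936492 PETs in senescent shcontrol, shMETTL3 and shMETTL14, and 998378 in control. The depth limits single counts, and a count of 0 allows up to 3 PETs. At an equal share of each library, 8 control PETs would correspond to 4.42 PETs in shcontrol, 5.00 in shMETTL3 and 7.50 in shMETTL14. With 1 library a group there is no test between groups, and the intervals given are exact 95% intervals that cover counting error only.

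Acetylation of H3K27 marks active enhancers and promoters, and contacts between such elements are one way in which distant enhancers reach the promoters they act on. Senescence is a lasting arrest of the cell cycle, and in fibroblasts driven into it by RAS the set of active enhancers is known to be remodelled widely. METTL3 and METTL14 form the complex that writes N6-methyladenosine on RNA. A HiChIP contact count depends both on how often regions meet and on how strongly they are acetylated, and these files do not separate them. The files give positions on hg19. No gene annotation of that build was used, so regions are named by position, counted from 1.

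The anchors themselves differed between the senescent and control files, and the difference was larger in regions of lost pairs than in shared regions as a whole. Inside the 930 regions the senescent anchors covered a median of 3.63 kb and the control anchors 8.81 kb. Over all shared regions the medians were 3.84 and 4.64 kb. The senescent set covered less than 50% of the control length in 519 of the 930 regions, 55.8%, against 12.1% of all shared regions. It was shorter in 892, 95.9%, against 64.0%. For a pair, the covered area is the product of the lengths covered at its ends. The senescent area was a median of 17.5% of the control area in lost pairs (quartiles 11.1 and 27.8%), and 52.3% over all pairs with 8 or more control PETs. How much of the low counts goes with the shorter anchors was not tested, and covered lengths or areas are given beside the main results that follow.

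**Figure D1:**
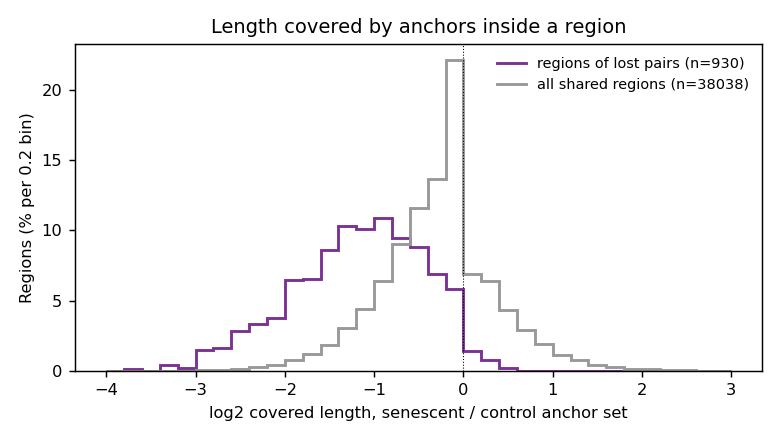
Log2 ratio of the length covered by senescent over control anchors (x axis) inside each region, as percent of regions per bin (y axis), for the 930 regions of lost pairs and the 38038 shared regions. The median is -1.12 for regions of lost pairs and -0.24 for all shared regions.

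A further property of the files fixes some senescent counts at 0. No file lists an interaction with anchor midpoints less than 5 kb apart. In 36 lost pairs every pair of senescent anchors lies closer than that, because the senescent anchors sit nearer to each other than the control anchors, so no PET could have been listed in any senescent library. These 36 spanned 4.81 to 9.16 kb and held 404 control PETs. No other pair with 8 or more control PETs had this property. The remaining 514 lost pairs are 3.42% of 15030 pairs that could be listed.

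Control PETs of the lost pairs ran from 8 to 52, with a median of 10. All pairs with 8 or more ran up to 597, with a median of 12. Exactly 8 control PETs were found in 144 lost pairs, 15 or more in 73 and 20 or more in 23. The sum over the senescent libraries was 0 in 134 pairs, 1 in 170, 2 in 178 and 3 in 68. Of the 134 pairs at 0, 98 had senescent anchors far enough apart to be listed. In total the lost pairs held 230 PETs in senescent shcontrol, 236 in shMETTL3 and 264 in shMETTL14, against 6033 in control. Scaled to 1000000 PETs of each library these are 417, 378 and 282 against 6043, as the rule requires.

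Just inside the threshold, the 144 pairs with exactly 8 control PETs held 53 PETs in senescent shcontrol, 67 in shMETTL3 and 66 in shMETTL14. Just outside it, 293 pairs with 7 control PETs and at most 1 PET in each senescent library held 136, 121 and 138. A further 467 pairs with 8 or more control PETs missed the rule by having 2 PETs in a single senescent library. That library was shcontrol in 106, shMETTL3 in 139 and shMETTL14, the deepest of the senescent libraries, in 222. Single PETs therefore decide membership for many pairs at the edge of the list.

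Most lost pairs rest on a single deposited interaction. In 541 of 550 the control PETs came from 1 interaction and in the others from at most 2. At least 1 interaction had a deposited false discovery rate of 0.01 or less in 423 lost pairs, 76.9%. The other 127 spanned at most 127 kb, with a median of 18.5 kb.

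The pair with the most control PETs lies on chromosome 2 and joins the regions from 30452291 to 30490134 and from 30509283 to 30531372, 49.1 kb apart. It had 1 PET in senescent shcontrol and 0 in shMETTL3 and shMETTL14, against 52 in control. The senescent anchors cover 2.87 and 8.04 kb of these regions, against 37.8 and 22.1 kb covered by control anchors. On chromosome 16, the regions from 70712206 to 70730191 and from 70733434 to 70745845 had 0 PETs in all senescent libraries, against 37 in control. Their covered area was 4.26% of that in control. On chromosome 3, the regions from 149243747 to 149277843 and from 149353208 to 149366598, 99.1 kb apart, had 0, 1 and 1 PETs in senescent shcontrol, shMETTL3 and shMETTL14, against 28 in control. Here the senescent anchors of the first region cover 23.0 kb, against 31.6 kb in the control set, and only the second is much shorter, at 3.05 against 13.4 kb.

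A pair on chromosome 11, from 68765275 to 68773663 and from 68773664 to 68783586, also had 28 control PETs and 0 in every senescent library, but it is one of the 36 that the senescent files could not list. The other 6 of the 10 pairs with the most control PETs had 24 to 27. They lie on chromosomes 2, 15, 20, 9 and 5, chromosome 2 holding 2 of them, and span 21.9 to 47.8 kb. Among these 6, the chromosome 9 pair from 113637493 to 113704574 had 0 PETs in all senescent libraries, and the covered area of the 6 was 2.43 to 11.9% of that in control. All 10 pairs thus combine a high control count with senescent anchors that cover at most 16.6% of the control area.

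**Figure D2:**
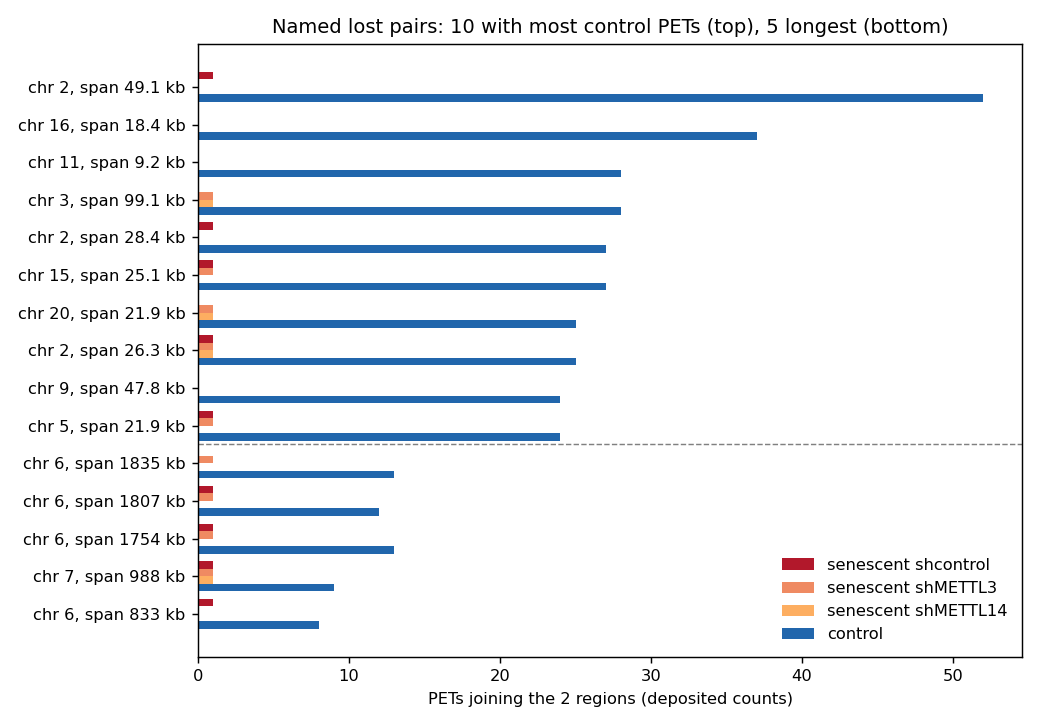
PETs (x axis, deposited counts) in each of the 4 libraries for 15 lost pairs, named by chromosome and span (y axis). Above the dashed line are the 10 pairs with the most control PETs, 24 to 52, and below it the 5 longest pairs, with 8 to 13. No senescent bar exceeds 1 PET, as the rule requires.

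Lost pairs were longer than the pairs they were drawn from. Their median span was 69.8 kb (quartiles 22.6 and 146 kb), against 42.2 kb (18.9 and 107 kb) over all pairs with 8 or more control PETs. Spans of 100 kb or more made up 37.1% of lost pairs and 26.6% of all, and spans of 500 kb or more 3.45 and 1.95%. The difference in medians was small in some subsets: 45.4 kb for the 134 lost pairs at 0 PETs in all senescent libraries, and 47.4 kb for the 67 with covered lengths within 2-fold at both ends. Both subsets include pairs too close to be listed. Without these the medians were 72.5 kb for 98 pairs and 76.4 kb for 48 pairs, against 42.4 kb for all pairs that could be listed with covered lengths within 2-fold. Among pairs that could be listed, the share that met the rule was 2.16% below 20 kb (87 of 4019), 2.40% at 20 to 50 kb (101 of 4205), 4.36% at 50 to 100 kb (122 of 2796) and 4.83% at 100 to 200 kb (108 of 2235). It was 5.20% at 200 to 500 kb (77 of 1481) and 6.46% from 500 kb on (19 of 294). Pairs share regions and libraries, so these shares are descriptions. The share that met the rule also fell with the control count, from 6.02% at 8 to under 10 control PETs to 0.654% at 20 or more. With at least 12 control PETs the median span of lost pairs was 53.2 kb. Spans were not compared at matched control counts, so the part of the difference that goes with these counts was not tested.

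The covered area separated the pairs more sharply than span did. Where the senescent area was less than a sixteenth of the control area (log2 ratio below -4), 44 of 77 pairs met the rule, 57.1%. The share was 27.7% at -4 to -3 (124 of 448), 11.3% at -3 to -2 (211 of 1870), 2.46% at -2 to -1 (117 of 4748) and 0.303% at -1 to 0 (18 of 5933). Of pairs with a senescent area above the control area, 0 of 1783 met it at 0 to 1 and 0 of 171 above 1. The order was the same at low and high counts. With 8 to 11 control PETs, 52.1% met the rule at a log2 area ratio below -3 and 0.613% above -1, and with 12 or more control PETs the shares were 20.8 and 0.193%. These last values include pairs the senescent files could not list.

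**Figure D3:**
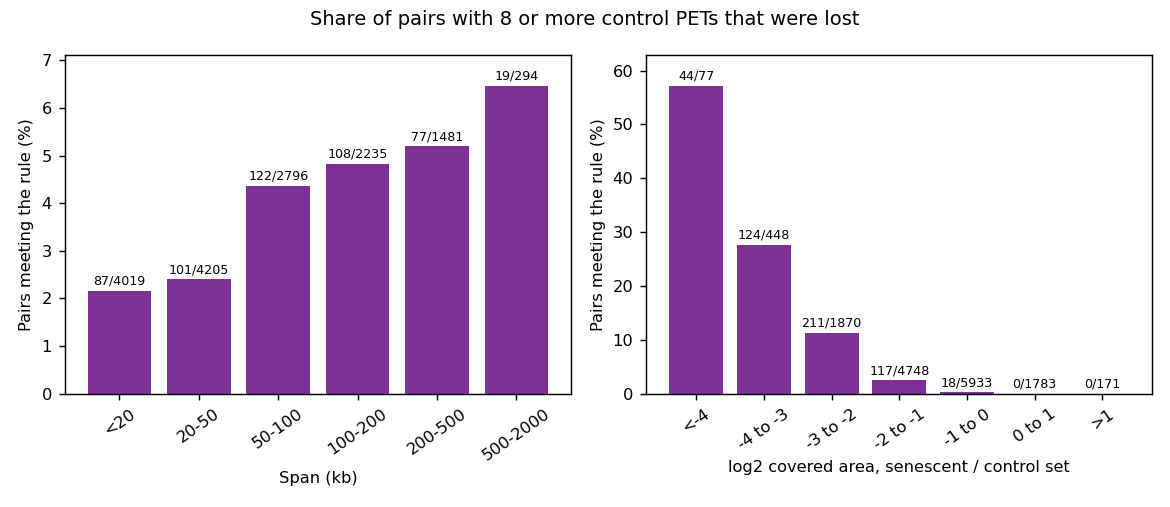
Percent of pairs with 8 or more control PETs that met the rule (y axis), by span in kb (left) and by log2 ratio of senescent over control covered area (right), among the 15030 pairs that could be listed. Numbers above bars are lost pairs over all pairs of the bin; the share is 2.16% below 20 kb and 6.46% from 500 kb on, and 57.1% at the lowest area ratios.

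The 5 longest lost pairs include 4 on chromosome 6. The region from 26015395 to 26036058 was joined to the regions from 27773040 to 27785509, from 27829395 to 27836994 and from 27855835 to 27864962, at spans of 1754, 1807 and 1835 kb. The first of these pairs had 1, 1 and 0 PETs in senescent shcontrol, shMETTL3 and shMETTL14, against 13 in control. The second had 1, 1 and 0 against 12, and the third 0, 1 and 0 against 13. Senescent anchors cover 15.9 kb of the shared end, against 20.7 kb in the control set, and 38.2 to 51.0% of the control area of the pairs, more than in most lost pairs. In a single random draw to an equal depth of 552029 PETs per library these 3 pairs had 2, 5 and 7 control PETs, and the other 2 long pairs 4 and 6. None of the 5 met the rule in that draw, and other draws were not made. Within 20 kb of both ends, interactions other than the pair itself held 3, 0 and 0 PETs in the 3 senescent libraries against 35 in control for the first, 4, 0 and 1 against 12 for the second, and 2, 0 and 0 against 12 for the third. The fourth long pair on chromosome 6 joins the regions from 26267357 to 26277413 and from 27093615 to 27117244 and had 1, 0 and 0 PETs against 8. On chromosome 7, the regions from 26189520 to 26198433 and from 27167001 to 27197775, 988 kb apart, had 1 PET in each senescent library, against 9 in control.

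Lost pairs were spread over the autosomes and chromosome X. Chromosome 2 held 62, chromosome 1 held 54 and chromosome 3 held 41. Relative to the pairs with 8 or more control PETs there, chromosome 15 had 36 of 574, 6.27%, and chromosome 14 had 27 of 511, 5.28%. On chromosome 15 a single stretch from 38998535 to 39894341, described below, held 18 of the 36, so that share does not describe the whole chromosome. Chromosome X had 8 of only 72, 11.1%. Chromosome 17 had 9 of 767, 1.17%, and chromosome 19 had 6 of 448, 1.34%.

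Some regions took part in several lost pairs. Of the 930 regions, 121 were in more than 1 lost pair, and the most were in 6. Joined through shared regions, the lost pairs fall into 388 networks, of which 311 consist of a single pair and 13 of at least 5. Those 13 hold 91 lost pairs.

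The network with the most lost pairs lies on chromosome 15 from 38998535 to 39894341. It holds 18 lost pairs among 17 regions, out of 71 pairs between those regions with 8 or more control PETs. The lost pairs had 8 PETs in senescent shcontrol, 8 in shMETTL3 and 12 in shMETTL14, against 214 in control. The pairs of the same regions that are not lost pairs were low in senescence as well, with 352, 333 and 372 PETs against 2000. Their share of the library was 0.318 of that in control in shcontrol (0.283 to 0.357), 0.266 in shMETTL3 (0.237 to 0.299) and 0.198 in shMETTL14 (0.177 to 0.222). Senescent anchors cover 55.8% of the control length in these regions, which stretch over 896 kb. Within this stretch the region from 39182973 to 39192984 had 0, 0 and 1 PETs to the region from 39455926 to 39467821, against 23 in control, and 0, 1 and 0 to the region from 39469114 to 39477183, against 16 in control.

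Chromosome 5 from 13982269 to 14473314 holds 9 lost pairs among 10 regions. They had 1 PET in each senescent library, against 113 in control. Other pairs of these regions had 60, 109 and 120 PETs against 353, which is 0.307 of the control share in shcontrol (0.230 to 0.405), 0.494 in shMETTL3 (0.395 to 0.614) and 0.362 in shMETTL14 (0.292 to 0.447). Senescent anchors cover 43.1% of the control length. The strongest of the long pairs there joins the regions from 14006059 to 14014871 and from 14215787 to 14254509, 225 kb apart, and had 0 PETs in all senescent libraries against 22 in control.

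The third network, on chromosome 6 from 26015395 to 27864962, contains the 3 longest lost pairs. Its 8 lost pairs had 4, 4 and 1 PETs in senescent shcontrol, shMETTL3 and shMETTL14, against 90 in control, and other pairs of its 9 regions had 35, 19 and 37 against 225. Senescent anchors cover 45.1% of the control length there. The fourth, on chromosome 11 from 95738266 to 96128539, holds 7 lost pairs with 3, 2 and 3 PETs against 83, and other pairs of its 8 regions had 39, 65 and 72 against 199, with senescent anchors covering 42.0% of the control length. In all 13 networks of at least 5 lost pairs the other pairs of the regions were below the control share in each senescent library, and in 10 of them the interval lay below 1 in all 3. Senescent anchors cover 29.5 to 63.6% of the control length in these 13. The networks were built from regions chosen for high control and low senescent counts. No comparable sets of other regions were counted, so these counts have no background.

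The region in the most lost pairs, by number and then by control PETs, is the chromosome 2 region from 30452291 to 30490134. Its 6 lost pairs reach regions 26.3 to 417 kb away, all on its downstream side in position. They had 3 PETs in senescent shcontrol, 2 in shMETTL3 and 3 in shMETTL14, against 134 in control. Its remaining contacts numbered 1, 4 and 5 PETs against 84. The log2 ratio of these other contacts was -4.92 in shcontrol (interval of the ratio of shares 0.000539 to 0.123), -3.52 in shMETTL3 and -3.75 in shMETTL14. Senescent anchors cover 2.87 kb of it, against 37.8 kb in the control set. Per covered kb the log2 ratios were -1.20, 0.20 and -0.027, and the intervals of all 3 ratios included 1. The chromosome 11 region from 95827334 to 95848998 is also in 6 lost pairs, with 2 PETs in each senescent library against 72 in control. Its other contacts had 6, 16 and 21 PETs against 178, and its strongest other partner in control, the region from 95877372 to 95906206, had 2, 4 and 4 PETs against 48. Senescent anchors cover 2.155 kb of the region, against 21.7 kb in the control set. Per covered kb the log2 ratios were -0.59, 0.58 and 0.39, so the direction turned in shMETTL3 and shMETTL14, and all 3 intervals included 1.

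Of the 3 regions in 5 lost pairs each, the one on chromosome 3 from 170134571 to 170148753 had 3, 2 and 9 other PETs in senescent shcontrol, shMETTL3 and shMETTL14, against 70 in control. Its lost pairs all reach a stretch 303 to 379 kb away. It has 2.89 kb covered by senescent and 14.2 kb by control anchors, and its log2 ratios per covered kb were -1.17, -1.78 and -0.45, with an interval below 1 in shMETTL3 alone. The chromosome 3 region from 149965209 to 149972423 had 2, 6 and 12 other PETs against 36. Senescent anchors cover 1.995 kb of it, against 7.215 kb in the control set, and its log2 ratios per covered kb were -1.15, 0.051 and 0.43, with all 3 intervals including 1. The chromosome 15 region from 39868307 to 39894341 had 72, 39 and 58 other PETs against 395 and log2 ratios of -1.59, -2.64 and -2.66. Per covered kb those ratios were 1.24, 0.19 and 0.18, so the direction for this region turned with the scaling. Its strongest other partner in control, the region from 39553106 to 39582857, had 7, 4 and 4 PETs against 45.

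**Figure D4:**
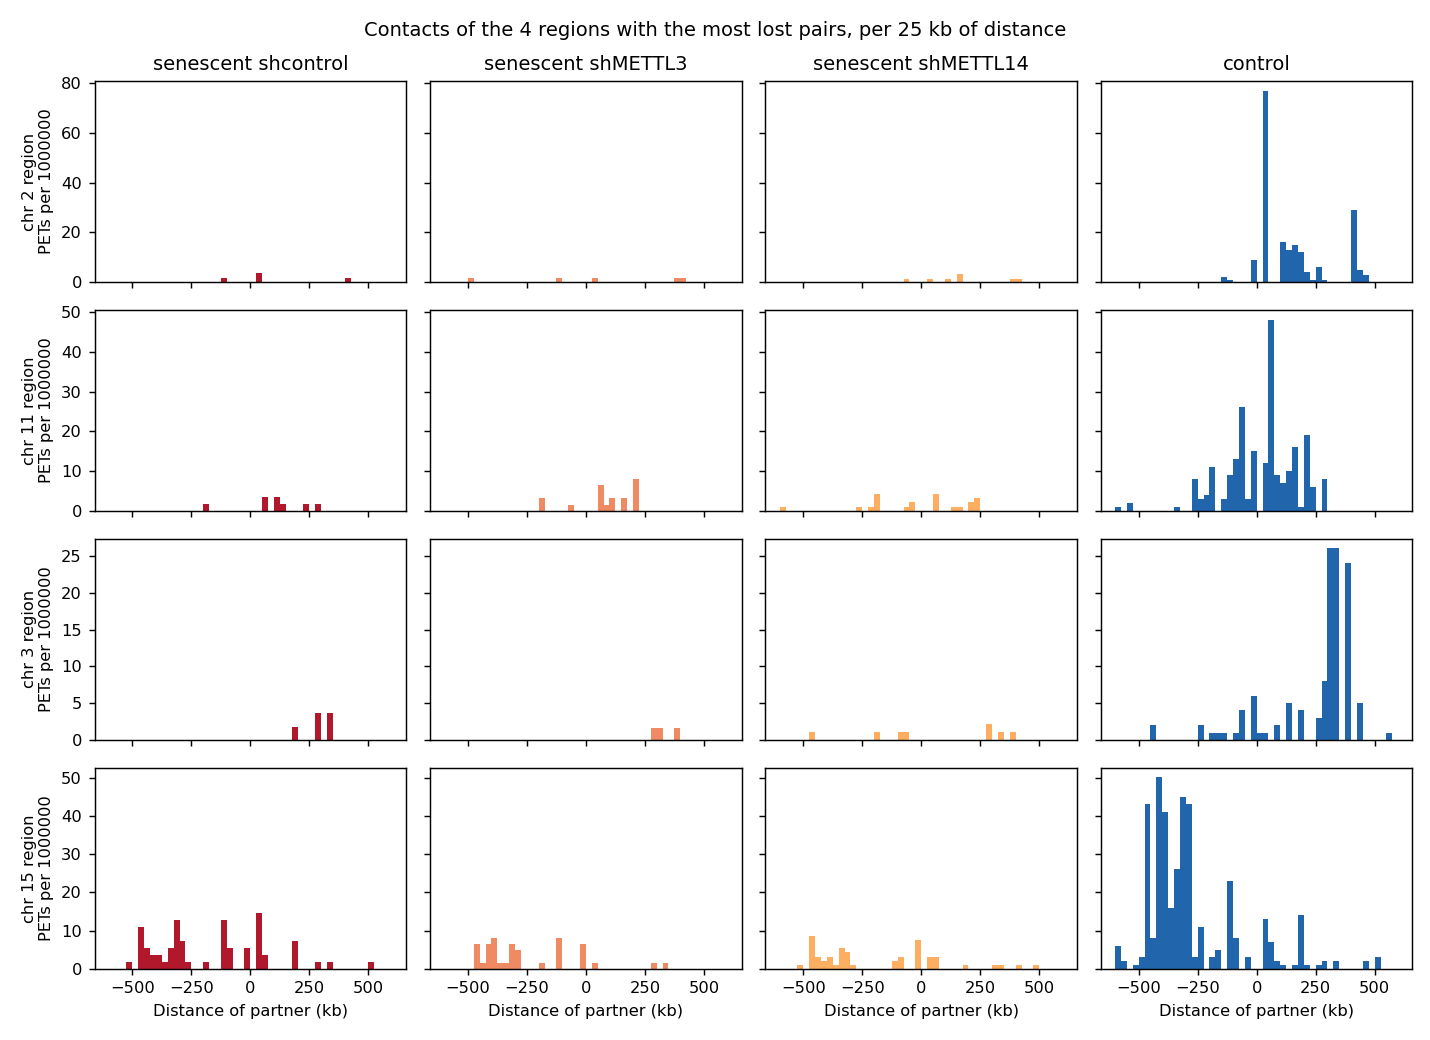
PETs per 1000000 of the library (y axis) by distance of the partner region in kb (x axis, bins of 25 kb), for the 4 regions with the most lost pairs in rows and the 4 libraries in columns. Lost pairs are included; the control profiles of the regions on chromosomes 2, 11, 3 and 15 are the highest in each row.

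To ask whether the regions had other contacts, PETs of their lost pairs were left out and all remaining PETs to other regions were counted. The remaining PETs come from the same libraries and are not free of the rule. Most join pairs of shared regions, which the rule also read and did not choose. A region was called lower or higher when the share of PETs differed at least 2-fold from control on a log2 scale with 1 PET per 1000000 added, the interval of the ratio excluded 1, and both libraries together held at least 20 PETs. In senescent shcontrol 524 of 904 regions were lower, 58.0%, against 13.2% of all shared regions with 20 or more PETs. In shMETTL3 547 of 903 were lower, 60.6% against 16.1%, and in shMETTL14 545 of 908, 60.0% against 14.3%. Higher were 4, 4 and 2 regions, where 16.4, 17.3 and 18.9% of all shared regions were. The median log2 ratio was -1.24 in shcontrol, -1.34 in shMETTL3 and -1.28 in shMETTL14, and over all shared regions 0.035, -0.022 and 0.064. The remaining 26, 27 and 22 regions of the 930 had too few PETs. Of 898 regions with enough PETs in all 3 comparisons, 433 were lower in each, 48.2%, against 8.35% of 27482 shared regions. These comparisons share the control library. Every region of a lost pair was chosen through a pair high in control and low in senescence, and all shared regions were not. The percentages are therefore not from matched sets, and how much of the difference goes with that choice was not tested.

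In total these regions held 30065 other PETs in senescent shcontrol, against 105771 in control, a share of 0.514 of that in control (0.508 to 0.521). The value was 0.484 in shMETTL3 (0.478 to 0.490) and 0.483 in shMETTL14 (0.478 to 0.488). A PET with both ends in these regions was counted at each end. The intervals treat such counts as separate PETs and are too narrow. Summed PETs do not say whether the same contacts made up the counts in each library. Divided by covered length, the regions were much closer to the control. The median log2 ratio per covered kb was -0.067, -0.16 and -0.087, against 0.37, 0.31 and 0.37 over all shared regions. By that measure 59 (6.53%), 104 (11.5%) and 86 (9.47%) regions were lower, against 2.32, 3.57 and 2.89% of all shared regions, and 42, 39 and 34 were higher, against 17, 17.3 and 18.8%.

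**Figure D5:**
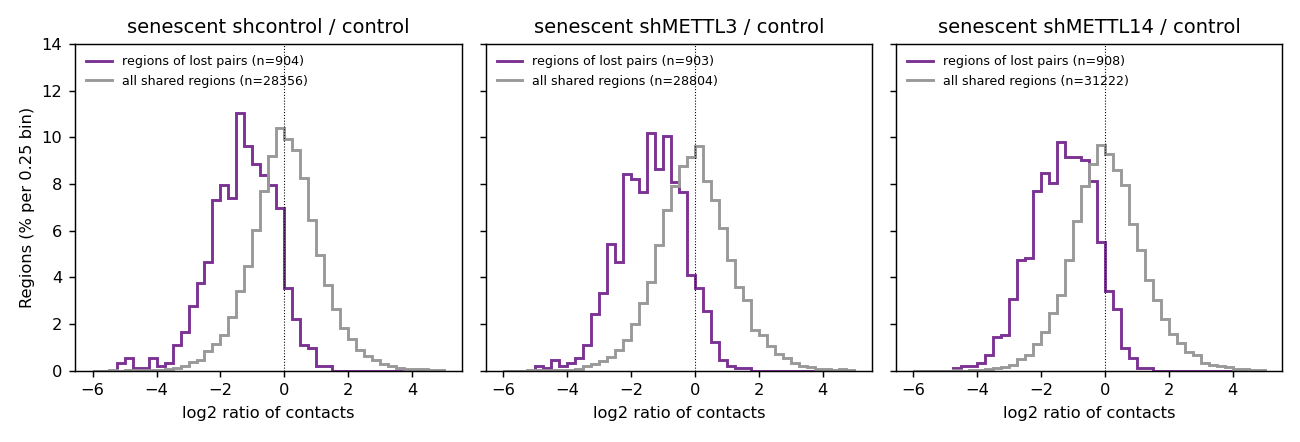
Log2 ratio of contacts in each senescent library over control (x axis) as percent of regions per bin (y axis). For regions of lost pairs the lost pairs' own PETs are left out; the medians are -1.24, -1.34 and -1.28, against 0.035, -0.022 and 0.064 over all shared regions.

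The same was seen pair by pair. The regions of lost pairs take part in 2142 further pairs with 8 or more control PETs that could be listed. These held 13619, 14776 and 21567 PETs in senescent shcontrol, shMETTL3 and shMETTL14, against 44692 in control, which is 0.551, 0.529 and 0.514 of the control share. The 12374 pairs that touch no such region stood at 1.01, 1.02 and 0.967. In shMETTL3, 308 of the 2142 pairs, 14.4%, had at least the control share, where 39.4% of the 12374 pairs had. Their median log2 area ratio was -1.58, and -0.80 for pairs that touch no such region. Of the 930 regions 702 had such a further pair and 228 had none, so in those 228 the lost pairs were the only contacts of 8 or more PETs with shared regions in control.

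Contacts just beside the lost pairs were low as well. For the 323 lost pairs whose regions lie over 40 kb apart, PETs of all other interactions with the midpoint of 1 end within 20 kb of each region were counted, anchors outside shared regions included. There were 2007 in senescent shcontrol, 2017 in shMETTL3 and 3173 in shMETTL14, against 10262 in control. The ratio of shares was 0.354 in shcontrol (0.337 to 0.371), 0.315 in shMETTL3 (0.300 to 0.330) and 0.330 in shMETTL14 (0.317 to 0.343). Around the other 6127 such pairs with 8 or more control PETs it was 0.850, 0.860 and 0.779. With the PETs of every lost pair left out, the ratios around lost pairs were 0.371, 0.330 and 0.346. The median count per lost pair was 3, 3 and 5 against 20. Windows of neighbouring lost pairs can overlap, and a PET in several windows was counted in each. The intervals treat such counts as separate PETs and are too narrow. In 16 lost pairs no senescent library had a PET nearby, and in 239 all 3 had. In these windows the senescent area was a median of 21.1% of the control area, and 46.5% for the other pairs.

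Each senescent library was also read on pairs chosen without it. With the rule applied to control, shMETTL3 and shMETTL14 alone, 718 pairs that could be listed met it. Senescent shcontrol then held 792 PETs in them against 7888 in control, a ratio of shares of 0.182 (0.169 to 0.195). It had at most 1 PET in 514, 71.6%, against 15.5% of all pairs with 8 or more control PETs that could be listed. For 771 pairs chosen without shMETTL3 its ratio was 0.182 (0.170 to 0.195), with at most 1 PET in 66.7% against 14.1%. For 1091 pairs chosen without shMETTL14 its ratio was 0.200 (0.191 to 0.209), with at most 1 PET in 47.1% against 8.30%. Over all pairs with 8 or more control PETs that could be listed the ratios were 0.909, 0.920 and 0.870. The pairs chosen without shcontrol, shMETTL3 and shMETTL14 had a median covered area of 18.5, 19.5 and 21.1% of that in control, against 52.3% over all pairs that could be listed. Among chosen pairs with covered lengths within 2-fold, the left-out library had at most 1 PET in 51.1% for shcontrol, against 7.03% of all such pairs. The shares were 49.5 against 6.36% for shMETTL3 and 24.4 against 2.57% for shMETTL14 (48 of 197 pairs). The 3 senescent libraries share an anchor set. The control counts in these ratios are those that chose the pairs, and only the left-out PETs were not used in the choice. The ratios and their intervals are therefore not independent of it. The number of lost pairs depended on shMETTL14: without it in the rule 1127 pairs were found, 36 of them too close to be listed.

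A smaller group of lost pairs differs less in its anchors. In 48 of the 514 lost pairs that could be listed, both regions have senescent and control covered lengths within 2-fold of each other. They are 0.492% of 9766 such pairs. They held 31 PETs in senescent shcontrol, 31 in shMETTL3 and 34 in shMETTL14, against 453 in control, and spanned a median of 76.4 kb. Only 3 had 0 PETs in all senescent libraries. In each of the 48 the senescent area was still smaller than the control area, at 25.7 to 77.8% of it. The areas were not compared with those of the 9766 pairs. The pairs with the most control PETs among them lie on chromosome 2, from 47208578 to 47217692 and from 47287673 to 47308575, and on chromosome 12, from 12865980 to 12892246 and from 13020812 to 13029091. The first had 1, 0 and 0 PETs in senescent shcontrol, shMETTL3 and shMETTL14, against 16 in control, with a covered area of 30.3% of that in control. The second had 1 in each against 16, with 38.0%. On chromosome 4 the regions from 129159888 to 129165299 and from 129199502 to 129212057 had 0, 0 and 1 PETs against 11, and the first of them has 5.41 kb covered in both anchor sets. The chromosome 6 pair at 1807 kb described above is also one of the 48. These pairs were picked out after their values were seen.

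Regions of lost pairs with more contacts elsewhere were few, and the 5 with the highest log2 ratio in shcontrol follow. The chromosome 12 region from 76047274 to 76062230 has 14.96 kb covered in both sets and had 584 other PETs in senescent shcontrol, 648 in shMETTL3 and 848 in shMETTL14, against 434 in control, log2 ratios of 1.28, 1.25 and 1.06. Its lost pair, with the region from 75942573 to 75951055, had 0, 1 and 1 PETs against 8. Its strongest other partner, the region from 76076226 to 76109274, had 99, 129 and 155 PETs against 85. The chromosome 12 region from 24711938 to 24717960 had 33, 17 and 32 other PETs against 24. Its log2 ratios were 1.28, 0.17 and 0.49, and the intervals in shMETTL3 and shMETTL14 included 1. The chromosome 22 region from 30500162 to 30514901 had 245, 207 and 245 against 215, log2 ratios of 1.04, 0.62 and 0.28. The regions on chromosome 9 from 101133644 to 101144658 and on chromosome 14 from 69499823 to 69507916 had log2 ratios of 0.93 and 0.90 in shcontrol, 0.95 and 0.62 in shMETTL3 and 1.36 and 0.97 in shMETTL14. None of these 5 regions was in more than 1 lost pair. The same held for 809 of the 930 regions of lost pairs, so it does not set these 5 apart.

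At the other end, the 5 regions with the lowest other contacts in senescent shcontrol had log2 ratios of -4.92 to -4.24. Besides the chromosome 2 region above, they are chromosome 12 from 110472345 to 110482898, chromosome 16 from 16063293 to 16085445, chromosome 5 from 14460916 to 14473314 and chromosome 3 from 159500612 to 159525421. The chromosome 16 region had 5, 19 and 16 other PETs in senescent shcontrol, shMETTL3 and shMETTL14, against 281 in control. Its strongest other partner, the adjoining region from 16086022 to 16103519, had 4, 10 and 8 PETs against 97. The chromosome 3 region had 3, 3 and 23 other PETs against 120. Per covered kb the 5 regions had log2 ratios of -2.87 to -1.20 in shcontrol. The regions were picked for low shcontrol values, and some rest on 1 to 3 PETs there. In shMETTL3 and shMETTL14 the values per covered kb were 0.20 and -0.027 for the chromosome 2 region, -0.17 and -0.97 for the chromosome 16 region and -2.01 and 0.13 for the chromosome 3 region. They were -1.19 and -1.69 for the chromosome 12 region and -1.20 and -2.09 for the chromosome 5 region.

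Seen by pair, both regions were lower in their other contacts in senescent shcontrol in 208 lost pairs, 37.8%, 1 region was in 257 and neither was in 85. Over all pairs with 8 or more control PETs both regions were lower in 9.35%, there with the pair's own PETs included. The opposite kind of pair, with 8 or more PETs in each senescent library and at most 1 in control, numbered 241 of 5960, 4.04%, and a single region of the lost pairs took part in one. Its minimum applies to several libraries, all shallower than control, so its share is not at the same thresholds as that of lost pairs. The share of other regions that take part in such pairs was not counted. The count for regions of lost pairs therefore has no background and cannot be read as low or high.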

How the data were processed

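The data are 4 lists of interactions from H3K27ac HiChIP of IMR90 cells, 1 per group, with groups taken from the sample titles. HiC-Pro 3.1.0 and hg19 are named in the submitters' processing notes; the sources used here name no tool for calling interactions or anchors. The deposited counts are raw PETs per interaction, with no normalization. The last deposited column has no header and was read as the authors' q-value. Anchors of the 4 lists that overlap by at least 1 bp were merged, PETs were summed per pair of different shared regions, and the rule of at least 8 control PETs and at most 1 PET in each senescent library was applied. Span is the distance between region midpoints. Covered length is the union of the anchors of a set inside a region. Contacts were scaled to 1000000 PETs of a library, with a pseudocount of 1, and ratios have exact conditional binomial 95% intervals. Named pairs are the 10 with the most control PETs and the 5 longest; named regions are the 5 in the most lost pairs and the 5 lowest and 5 highest in other contacts with at least 50 PETs. Networks are described in order of lost pairs, and pairs with similar anchor lengths were added after values were seen. The pairs, the rule and the quantities compared were chosen with earlier results of these data known. Alternatives covered thresholds, libraries in the rule, equal depth, the q-value, merging, covered length and scaling. Scripts were tested on simulated data. Python 3.11.15, pandas 2.3.3, numpy 2.4.6, scipy 1.17.1 and networkx 3.6.1 were used.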

Additional observations from a re-analysis of the deposited data

How the results depend on the processing

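The number of lost pairs, 550, was 153 with a minimum of 12 control PETs and 1388 with 6, 134 with 0 senescent PETs allowed and 1261 with 2, and 1127 without shMETTL14 in the rule. At equal depth of 552029 PETs, from a single random draw, it was 166, of which 104 are among the 550. It was 67 with covered lengths within 2-fold and 48 with senescent anchors also at least 5 kb apart, a setting chosen after seeing the data. Median span, 69.8 kb, was 53.2 and 85.8 kb at 12 and 6 control PETs, 45.4 kb at 0 senescent PETs, 94.97 kb with interactions at a q-value of 0.01 or less and 47.4 kb with covered lengths within 2-fold.

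The median log2 ratio of other contacts in shcontrol, -1.24, was -1.61 and -0.88 at 12 and 6 control PETs, -0.94 with 2 senescent PETs allowed, -1.10, -1.06 and -0.97 without shcontrol, shMETTL3 and shMETTL14 in the rule, -1.33 at equal depth, -1.32 with the q-value, -0.67 with covered lengths within 2-fold, -1.51 scaled to PETs between shared regions and -0.067 per covered kb. For the chromosome 15 region from 39868307 to 39894341 the direction turned per covered kb, to 1.24, where the division is by the shorter senescent anchors. The log2 covered length, -1.12, was -1.36 and -0.90 at 12 and 6 control PETs, -0.95 with 2 senescent PETs allowed, -1.05, -1.02 and -0.95 without shcontrol, shMETTL3 and shMETTL14, -1.28 at equal depth and -0.60 with covered lengths within 2-fold. Contacts near the pair stood at a log2 ratio of -1.499 for 323 pairs, -1.69 within 5 kb for 426 and -0.98 within 50 kb for 182. The sets of pairs differ, because a larger distance needs regions that lie farther apart. The cause of these shifts was not tested. Another 22 values stayed within 1.5 times the main count or, for medians and ratios, within the 95% interval of the main value. Of 114 values for single pairs and regions 90 stayed within the interval of the main value, 23 moved and 1 reversed. The interval of a median treats pairs or regions as separate, although they share regions and libraries. It served only to sort the values. Per covered kb, other contacts in shcontrol stood at -0.59 against -3.92 for the chromosome 11 region from 95827334 and at -1.81 against -4.81 for the chromosome 16 region from 16063293. No paired analysis was possible because each group is 1 library. Anchors under 5 kb apart are not listed, and single PETs decide membership at the threshold.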
